A study of Homo sapiens with 8 samples.

Results

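The phagocyte NADPH oxidase was followed through 7 of its genes in U-937, a line of human leukemia cells at the pro-monocytic stage. The members were taken by gene symbol from a list of 7: CYBB and CYBA, which encode the membrane-bound pair, NCF1 and NCF4, which encode cytosolic subunits, the small GTPases RAC1 and RAC2, and HVCN1, the voltage-gated proton channel that accompanies the enzyme. All 7 were found among the 61125 genes listed, and all 7 passed the filter on low counts that left 14995 genes for testing. Cells were treated for 72 h with vehicle (PBS and DMSO), 250 µM L-ascorbic acid (LAA, dissolved in PBS), 1 µM all-trans retinoic acid (ATRA, dissolved in DMSO), or both compounds (LAA+ATRA), and poly-A selected RNA was sequenced in 2 libraries per group, 8 in all. All 4 groups are the same cell line in the same medium with serum, so the results describe 1 leukemia line and no primary phagocyte. The labels do not state that the 2 libraries of a group came from separate cultures, so every p-value reflects the spread between libraries alone, and this spread may be technical.

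The oxidase moves electrons from NADPH across a membrane onto oxygen and so makes superoxide, the first product of the respiratory burst of phagocytes. CYBB carries the flavin and heme groups and is the catalytic chain, and it is stable only as a heterodimer with CYBA, the docking site for the cytosolic subunits. In a resting cell NCF1 and NCF4 wait in the cytosol. On stimulation NCF1 is phosphorylated and brings the cytosolic complex to the membrane, a Rac GTPase takes part in starting electron flow, and NCF4 binds a phosphoinositide of the phagosome. HVCN1 lets protons follow the electrons and so balances the charge. Inherited loss of CYBB, CYBA, NCF1 or NCF4 impairs the burst, and retinoic acid is a classical inducer of burst capacity in immature myeloid lines.

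NCF1 needs its sequence shown before its values, because it has 2 closely related pseudogenes, NCF1B and NCF1C, on the same chromosome. On GRCh38 in GENCODE 29, NCF1 lies on the plus strand of chromosome 7 from 74773962 to 74789315, NCF1B from 73220624 to 73235945 and NCF1C from 75156639 to 75172044. The NCF1-201 and NCF1C-201 transcripts differ in exon 2 of 11 of NCF1-201, at 74777267 to 74777270 of chromosome 7, where NCF1 has 2 GT units and NCF1C has 1. The 2 transcripts are printed with 20 bases on either side, with the GT units in capitals.
NCF1-201: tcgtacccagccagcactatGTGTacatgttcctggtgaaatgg
NCF1C-201: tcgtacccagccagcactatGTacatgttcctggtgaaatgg
This difference is the classical mark of the pseudogenes, in which it shifts the reading frame. The transcript models NCF1B-201 and NCF1B-202 also carry 1 unit, and NCF1B-203 carries 2. NCF1C-201 matched NCF1-201 at 99.3% of 1396 aligned positions, NCF1B-203 at 91.9% of 1256 and NCF1B-202 at 81.3% of 945. Of the 31-base words in NCF1-201, 91.7% also occurred in a transcript of another gene, whereas none did for CYBB, CYBA, NCF4 or HVCN1. For RAC2 the share was 0.207%, and for the RAC1-201 transcript it was 20.1%, most of it with the pseudogene RAC1P2. The counts given for NCF1, NCF1B and NCF1C are therefore uncertain as a split, and values of their sum are given with the results.

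Promoters are shown for CYBB, NCF1 and CYBA, 3 members that rose together with ATRA and the 3 of 7 with an entry in the RefSeq promoter table (GRCh38.p14). Each run holds the 250 bases before the start annotated in RefSeq, 5′ to 3′ on the gene's strand, with matches to GAGGAA or its reverse complement in capitals, the core of sites for the myeloid transcription factor PU.1.
CYBB, plus strand, chrX:37779809-37780058: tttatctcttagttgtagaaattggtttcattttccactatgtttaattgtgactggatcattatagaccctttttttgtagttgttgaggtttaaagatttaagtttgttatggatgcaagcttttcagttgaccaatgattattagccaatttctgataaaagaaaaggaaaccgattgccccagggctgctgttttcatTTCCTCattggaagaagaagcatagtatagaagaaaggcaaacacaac
NCF1, plus strand, chr7:74773761-74774010: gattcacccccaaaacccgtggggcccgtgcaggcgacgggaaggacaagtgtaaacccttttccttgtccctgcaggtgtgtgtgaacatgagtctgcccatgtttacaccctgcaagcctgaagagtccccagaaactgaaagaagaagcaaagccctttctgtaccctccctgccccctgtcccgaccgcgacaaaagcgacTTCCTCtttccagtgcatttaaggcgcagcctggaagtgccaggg
CYBA, minus strand, chr16:88651054-88651303: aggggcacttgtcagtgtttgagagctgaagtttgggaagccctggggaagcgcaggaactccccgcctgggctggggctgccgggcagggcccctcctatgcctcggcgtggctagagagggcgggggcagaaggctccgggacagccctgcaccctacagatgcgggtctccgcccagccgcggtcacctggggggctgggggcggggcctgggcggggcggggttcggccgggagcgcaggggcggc
CYBB and NCF1 each held 1 PU.1 core, beginning 48 and 45 bases before the RefSeq start. It was on the opposite strand in both, and CYBA held none. Over all 35116 promoters, 23.6% held this motif on either strand. The interferon-response core, GAAA followed after any 2 bases by GAAA, had 2 matches in CYBB (beginning 225 and 86 bases before the start) and 1 in NCF1 (116 bases), against 3.02% of all promoters with a match on either strand. None of these matches overlapped another. The retinoic acid receptor motif AGGTCA, found in 12.1% of promoters, its direct repeats with 5 or 2 bases between them (each in 0.00285%), the gamma-activated site TTCNNNGAA (6.57%) and the C/EBP site TTGCNNAA (9.05%) had no match on either strand in these windows. The base composition of the windows ran from 34% G+C in CYBB through 56.4% in NCF1 to 73.6% in CYBA. The start annotations disagree. In GENCODE, CYBB starts at 37780011, NCF1 at 74773962 and CYBA, on the minus strand, at 88651152, each within its window. By GENCODE the PU.1 core of CYBB thus begins at the first base of the gene, and that of NCF1 lies inside the gene. Neither core is upstream of the GENCODE start. Which start these cells use was not tested. A match in letters is a description of the sequence and does not show binding.

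Library totals ran from 18462552 to 24166770 estimated counts. Values are read counts in CPM, scaled to the effective library size, and log2 fold changes are given with their standard error. Genes count as called, and as having risen or fallen, where the edgeR quasi-likelihood test gave an adjusted p under 0.05 (Benjamini-Hochberg, over all 14995 genes). All 10 textbook markers of pro-monocytic cells were detected in every library, among them CD33, LYZ and CST3. With ATRA 8 of the 10 rose and none fell, where 21.9% of all genes tested were called higher and 21% lower. Their summed level ran from 2410 to 2650 CPM without ATRA and from 4650 to 5430 CPM with it. The 10 markers of other lineages summed to between 10.3 and 14.3 CPM, and 6 or 7 of them had no counts in a given library, while 3 passed the filter and none of these was called with ATRA. The part of the shift in myeloid markers in the oxidase results was not tested, and in bulk RNA more cells of a type and more RNA per cell cannot be told apart.

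ATRA raised both chains of the membrane complex, but from very different starting levels. CYBB (ENSG00000165168.9, chromosome X, 37780011 to 37813461) had 3.13 and 4.03 CPM in the vehicle libraries and 134 and 123 CPM in the ATRA libraries. The lowest ATRA library thus lay far above the highest vehicle library, and the catalytic chain went from a trace to a well-detected transcript (35.9-fold, log2 fold change 5.17 ± 0.16, adjusted p = 6.43e-10). CYBA (ENSG00000051523.12, chromosome 16, 88643283 to 88651152) was already abundant, with 202 and 197 CPM in vehicle and 644 and 656 CPM with ATRA. It rose 3.26-fold (1.71 ± 0.14, adjusted p = 1.82e-06), with no overlap between the groups.

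The cytosolic subunits rose as well, NCF1 most of all 7 members. NCF1 (ENSG00000158517.16), the organizer subunit, had 1.73 and 1.6 CPM in vehicle and 181 and 141 CPM with ATRA (96.2-fold, 6.59 ± 0.2, adjusted p = 4.24e-10). Its pseudogenes had the same pattern. NCF1B rose 78.3-fold (adjusted p = 5.67e-09) and NCF1C 114-fold (adjusted p = 3.69e-09). NCF1 took from 43.4% to 44.9% of the reads of the 3 copies in the libraries with ATRA. Without ATRA, where the 3 copies together had 61 to 168 counts, that share ran from 35.9% to 58.3%. Together the 3 copies had 2.94 and 4.41 CPM in vehicle and 403 and 320 CPM with ATRA. Summing them before the test gave a rise of much the same size (log2 fold change 6.62, adjusted p = 7.70e-10). NCF4 (ENSG00000100365.16, chromosome 22, 36860988 to 36878015), which binds phosphoinositide, was expressed before treatment at 98 and 100 CPM and reached 212 and 233 CPM (2.24-fold, 1.17 ± 0.11, adjusted p = 3.39e-06).

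**Figure D1:**
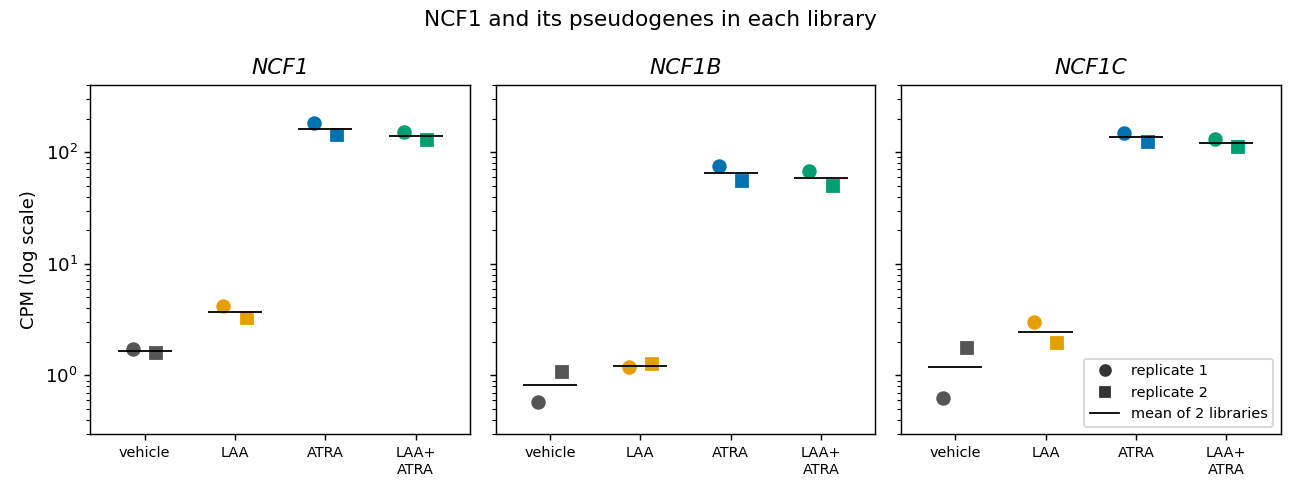
CPM on a log axis of NCF1, NCF1B and NCF1C in each of the 8 libraries, with the mean of each group as a line. In all 3 copies the 4 libraries with ATRA lie far above the 4 without it.

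The GTPases parted. RAC2 (ENSG00000128340.15, chromosome 22, 37225261 to 37244448), the Rac form restricted to blood cells, had 223 and 232 CPM in vehicle and 424 and 386 CPM with ATRA (1.78-fold, 0.83 ± 0.094, adjusted p = 2.25e-05). RAC1 (ENSG00000136238.19, chromosome 7, 6374523 to 6403977), the widely expressed form, had 319 and 313 CPM in vehicle and 330 and 364 CPM with ATRA and was not called (0.13 ± 0.11, adjusted p = 0.351). The 95% interval of its log2 change ran from -0.1 to 0.37. The proton channel HVCN1 (ENSG00000122986.14, chromosome 12, 110627841 to 110704950) differed in the other direction, with 0.83 and 1.47 CPM in ATRA libraries against 2.02 and 2.67 CPM in vehicle, without overlap. Its log2 fold change was -1.01 ± 0.41 without a call (adjusted p = 0.0665), at 15 to 55 counts per library, and it was called without ATRA replicate 2 (-1.49, adjusted p = 0.044), without LAA+ATRA replicate 2 (-1, adjusted p = 0.0478) and with no filter on low counts (-1, adjusted p = 0.0481). It was smaller without ATRA replicate 1 (-0.66, adjusted p = 0.288) and without vehicle replicate 2 (-0.8, adjusted p = 0.267).

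In all, 5 of 7 members rose with ATRA and none fell, where 21.9% of all genes tested were called higher. The median log2 fold change was 1.17 over the members and -0.004 over all genes. Members and gene lists were chosen with earlier results of these data known. Their counts beside the shares of all genes are thus a description and not a test.

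**Figure D2:**
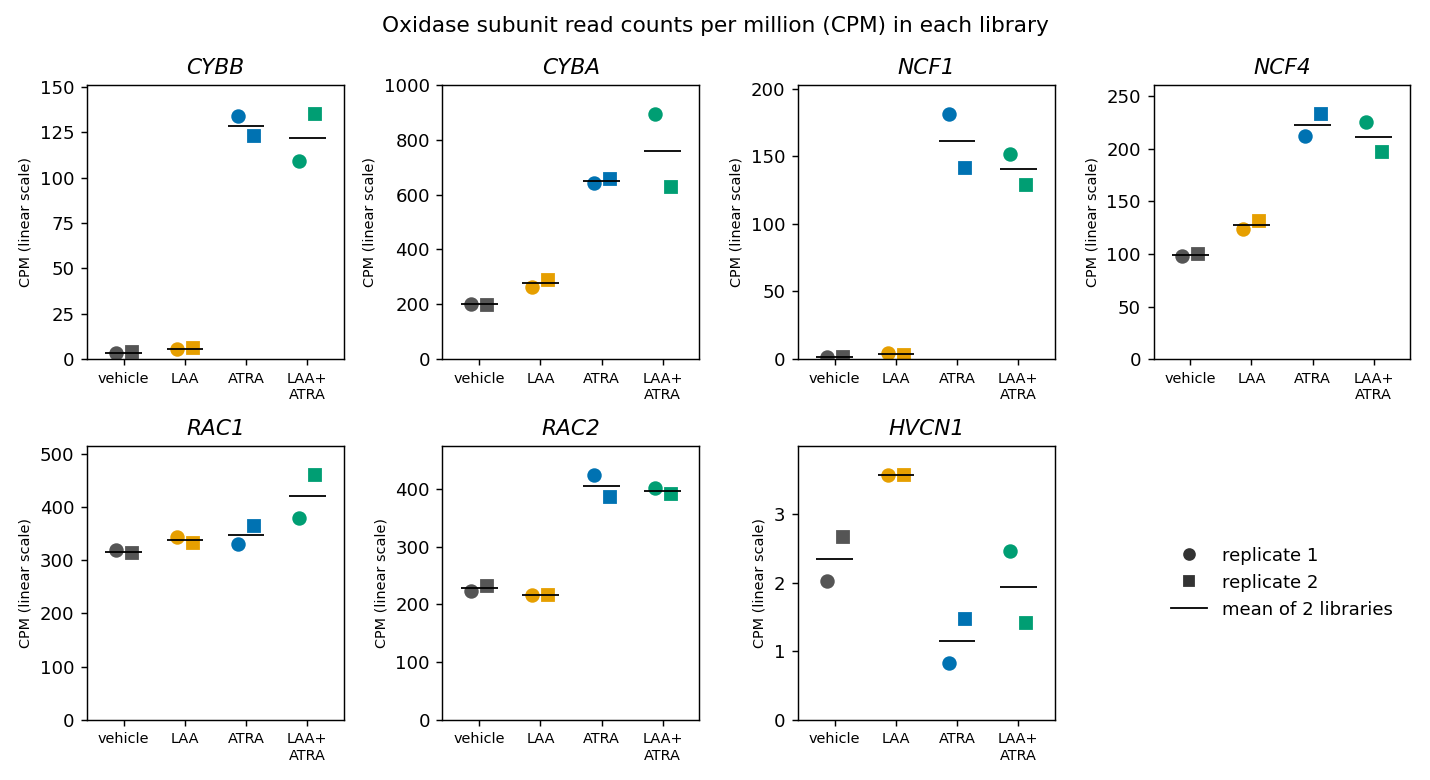
CPM on linear axes of the 7 members in each library, with the mean of each group as a line. CYBB and NCF1 stay under 6 CPM without ATRA and exceed 100 CPM in each library with it, while HVCN1 stays under 4 CPM throughout.

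Levels between genes were compared on the deposited FPKM scale, which divides by gene length. In vehicle the order was CYBA (435 ± 12.6 FPKM, SD, n = 2), RAC2 (190 ± 5.69), RAC1 (164 ± 0.193), NCF4 (86 ± 0.895), HVCN1 (1.97 ± 0.198), NCF1 (1.46 ± 0.0399) and CYBB (0.921 ± 0.163), and no neighbours in that order overlapped in their libraries. With ATRA it was CYBA (1520 ± 190 FPKM), RAC2 (343 ± 14.9), NCF4 (194 ± 17.7), RAC1 (190 ± 6.32), NCF1 (147 ± 20.3), CYBB (33 ± 2.96) and HVCN1 (0.919 ± 0.375). NCF4 and RAC1 overlapped there, at 181 and 206 against 185 and 194 FPKM. With LAA alone RAC1 (178 ± 6.51 FPKM) and RAC2 (176 ± 2.91) overlapped, as did NCF1 (3.17 ± 0.616) and HVCN1 (2.8 ± 0.0411), and the other neighbours did not. With both compounds the order was CYBA (1680 ± 353), RAC2 (331 ± 6.16), RAC1 (252 ± 0.979), NCF4 (180 ± 12.1), NCF1 (123 ± 8.85), CYBB (30.8 ± 3.49) and HVCN1 (1.5 ± 0.557), without overlap. The place of NCF1 in these orders depends on the split among its copies. Their summed FPKM was 2.5 and 4.02 in vehicle, above HVCN1, 363 and 301 with ATRA, overlapping RAC2, and 302 and 265 with both compounds, between RAC2 and RAC1.

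The transcripts of the obligate pair CYBB and CYBA came closer in level with ATRA but stayed far apart. CYBA exceeded CYBB on the FPKM scale 551-fold and 411-fold in the vehicle libraries, 430-fold and 396-fold with LAA, 39.4-fold and 53.5-fold with ATRA, and 68.1-fold and 43-fold with both. No library with ATRA overlapped those without, and the mean log2 ratio of CYBB to CYBA was 3.15 higher with ATRA. NCF4 exceeded NCF1 57.2-fold and 60.4-fold in vehicle and 1.13-fold and 1.56-fold with ATRA. With the FPKM of the 3 NCF1 copies summed, an alternative chosen after seeing the data, the direction with ATRA turned: the sum was 2 and 1.46 times NCF4 with ATRA and 1.6 and 1.54 times with both compounds, while NCF4 exceeded it 34.1-fold and 21.5-fold in vehicle. Which of NCF1 and NCF4 was higher with ATRA therefore rests on the split of reads among the copies. The mean log2 ratio of NCF1 to NCF4 was 5.01 higher with ATRA, and 5.11 higher with the copies summed. RAC2 went from 1.13 and 1.19 times the FPKM of RAC1 in vehicle to 1.91 and 1.71 times with ATRA, and 1.3 and 1.33 times with both compounds. Ratios between genes depend on the lengths the authors used and are given without a test.

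**Figure D3:**
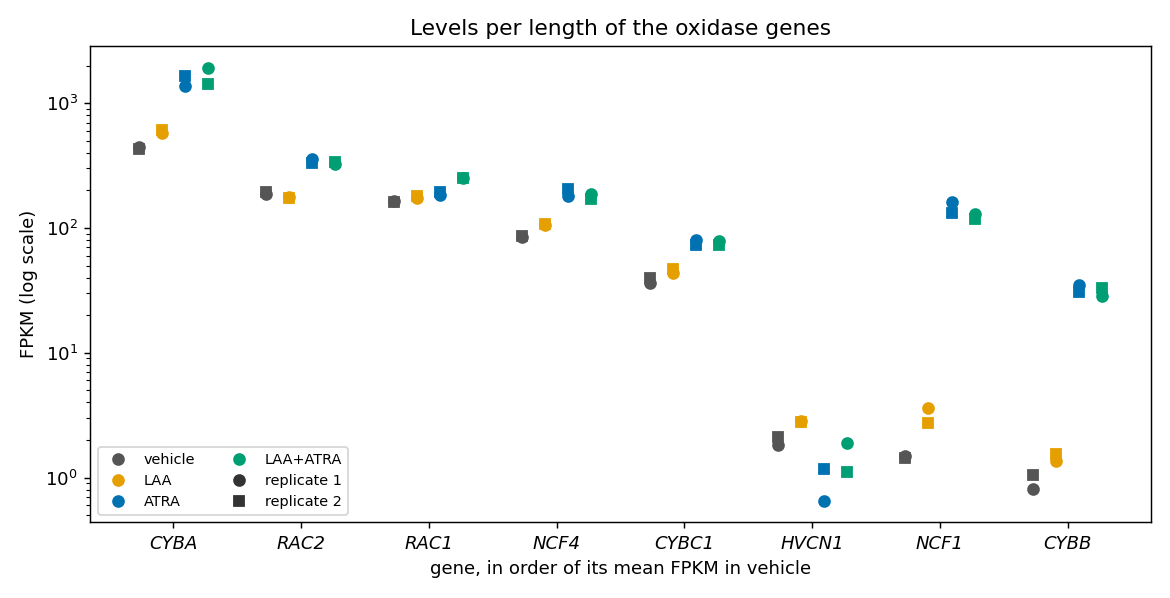
FPKM on a log axis of the 7 members with CYBC1, a chaperone of the membrane pair, in order of their vehicle mean, 8 libraries per gene. CYBB and NCF1, last in vehicle, are the genes that move furthest, while CYBA stays first in each group.

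With LAA alone no member passed the adjusted threshold. NCF1 had 4.17 and 3.26 CPM with LAA against 1.73 and 1.6 in vehicle (2.23-fold, 1.16 ± 0.25, adjusted p = 0.0569). CYBB had 5.26 and 5.99 CPM against 3.13 and 4.03 (1.57-fold, 0.65 ± 0.19, adjusted p = 0.101). In both, each LAA library lay above each vehicle library, at levels far under those with ATRA. CYBA had 264 and 288 CPM against 202 and 197 (0.47 ± 0.14, adjusted p = 0.109). NCF4 had 124 and 131 CPM against 98 and 100 (0.37 ± 0.1, adjusted p = 0.0985). HVCN1 had 3.57 CPM in each LAA library against 2.02 and 2.67 (0.61 ± 0.38, adjusted p = 0.429), with a 95% interval from -0.23 to 1.44. The GTPases had the smallest differences. RAC1 had 344 and 332 CPM (0.1 ± 0.11, adjusted p = 0.693) and RAC2 had 217 and 216 CPM (-0.07 ± 0.094, adjusted p = 0.732).

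For 6 of 7 members, all but RAC2, both LAA libraries were above both vehicle libraries, as they were for 28.6% of all genes tested. In the edgeR test 0 of 7 were called, where 0.0267% of all genes were, and 4 of 7 (NCF1, CYBB, CYBA and NCF4) had an unadjusted p under 0.05, as had 18.9% of all genes. DESeq2 called those 4 as higher (adjusted p = 9.76e-04 for NCF1, 0.0325 for CYBB, 0.0118 for CYBA and 0.0196 for NCF4), and it called 7.28% of the genes to which it gave an adjusted p. NCF1 was also called in edgeR without ATRA replicate 1 (0.0273), ATRA replicate 2 (0.0287) or when LAA+ATRA replicate 1 (0.0466) or 2 (0.0425) was left out, and CYBA when either LAA+ATRA library was left out (0.0426 for replicate 1 and 0.0382 for replicate 2). The edgeR test took the spread of a gene over all 4 groups together. Relative to counting error (reduced chi-square), replicates differed more with ATRA (21.3) and both compounds (23.7) than in vehicle (5.24) or with LAA (5.85). In edgeR fitted to LAA and vehicle libraries only, NCF1 (0.0273), CYBA (8.17e-04) and NCF4 (0.00393) were called, as were 15.4% of all genes in that fit. With no filter on low counts NCF1 (5.43e-05), CYBA (0.00289) and CYBB (0.018) were called, as were 3.2% of all genes. With the 3 NCF1 copies summed the log2 fold change was 1.01 (adjusted p = 0.0609). With offsets for gene length the log2 fold change of CYBA was 0.25 (adjusted p = 0.424).

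With LAA added to ATRA no member was called either. CYBB had 109 and 135 CPM with both compounds against 134 and 123 with ATRA (-0.08 ± 0.12, adjusted p = 0.787, 95% interval -0.34 to 0.19). NCF1 had 152 and 129 CPM against 181 and 141 (-0.2 ± 0.13, adjusted p = 0.468, 95% interval -0.49 to 0.09), and the 3 copies summed gave -0.17 (adjusted p = 0.599). The libraries of the groups overlapped for both genes. NCF4 had 226 and 197 CPM against 212 and 233 (-0.07 ± 0.1, adjusted p = 0.767), and RAC2 had 401 and 392 against 424 and 386 (-0.03 ± 0.093, adjusted p = 0.905). These too overlapped. CYBA had 893 and 627 CPM against 644 and 656 (0.22 ± 0.14, adjusted p = 0.413), so that its replicates with both compounds lay on either side of the ATRA libraries. Without LAA+ATRA replicate 1 its log2 fold change was -0.06 and without LAA+ATRA replicate 2 it was 0.46. HVCN1 had 2.46 and 1.41 CPM against 0.83 and 1.47 (0.72 ± 0.42, adjusted p = 0.382), and the value ran from 0.27 without LAA+ATRA replicate 1 to 1.21 without ATRA replicate 2.

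RAC1 was the only one of the 7 with both LAA+ATRA libraries above both ATRA libraries, a pattern that 21.2% of all genes had. It had 380 and 460 CPM against 330 and 364 (0.28 ± 0.11, unadjusted p = 0.0256, edgeR quasi-likelihood adjusted p = 0.196). The log2 fold change ran from 0.13 without LAA+ATRA replicate 2 to 0.4 without LAA+ATRA replicate 1. Of the 7 members, 0 were called in edgeR and 0 in DESeq2, and 1 had an unadjusted p under 0.05, where 1.01% of all genes were called and 18.6% had such a p.

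The values of RAC1 also depended on the unit. On the FPKM scale it had 164 and 163 in vehicle, 173 and 182 with LAA, 185 and 194 with ATRA, and 251 and 252 with both compounds. The replicates with both compounds, 380 and 460 by CPM, were thus almost equal by FPKM. The gene length implied by count and FPKM, relative to the vehicle mean, was 0.76 and 0.937 in these libraries and 0.92 to 1.01 in the others. The value of 0.937 thus lay within the range of the others. With both compounds 12.3% of 14569 genes had a lower relative length than RAC1, as had 21.2% with ATRA and 27.3% with LAA. In GENCODE 29 the protein-coding transcripts of RAC1 are 2323 and 907 bases long, and the deposited files do not separate them. Against vehicle, RAC1 with both compounds had a log2 fold change of 0.41 ± 0.11 in counts (adjusted p = 0.00878) and 0.62 in limma on log2(FPKM + 1) (adjusted p = 9.25e-04). Against ATRA the limma value was 0.41 (adjusted p = 0.0929).

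**Figure D4:**
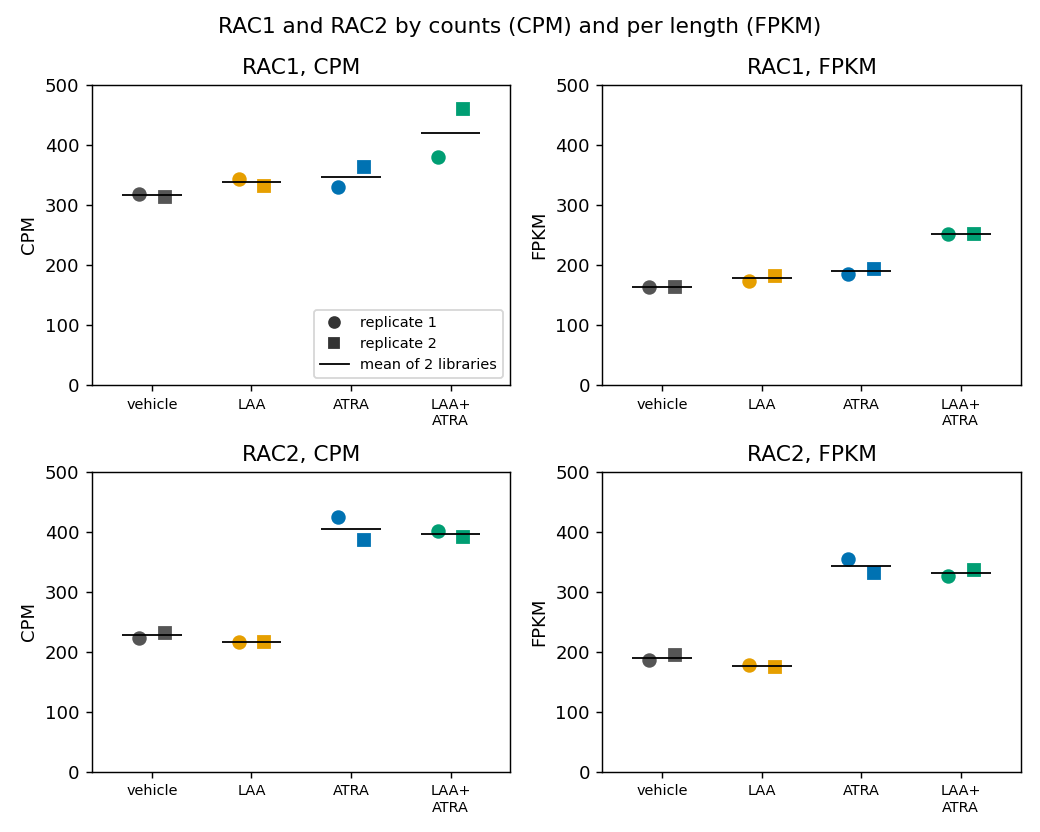
RAC1 and RAC2 in each library as CPM and as FPKM, on linear axes from 0, with the mean of each group as a line. The LAA+ATRA libraries of RAC1 differ by CPM and coincide by FPKM, and those of RAC2 are close on both scales.

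With both compounds against vehicle, 6 of 7 members rose and none fell, where 23.1% of all genes were called higher. The log2 fold changes were 5.09 ± 0.16 for CYBB, 1.93 ± 0.14 for CYBA, 6.39 ± 0.2 for NCF1, 1.09 ± 0.11 for NCF4 and 0.8 ± 0.094 for RAC2, beside 0.41 for RAC1. The member that joined the 5 called with ATRA alone was RAC1, and its call was lost without vehicle replicate 1 (adjusted p = 0.0593), vehicle replicate 2 (0.0732) or LAA+ATRA replicate 2 (0.27, adjusted p = 0.066). HVCN1 was not called (log2 fold change -0.28 ± 0.4, adjusted p = 0.594), and its sign turned without LAA+ATRA replicate 2 (0.07, adjusted p = 0.914). The comparison shares its vehicle libraries with that of ATRA alone.

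ATRA added to LAA gave the same 6 as higher, where 18.4% of all genes were. NCF1 was 37.7-fold higher (5.24 ± 0.18, adjusted p = 1.48e-09) and CYBB 21.7-fold (4.44 ± 0.15, adjusted p = 1.53e-09), from the higher levels with LAA alone. CYBA (1.46 ± 0.14), NCF4 (0.73 ± 0.1) and RAC2 (0.87 ± 0.094) rose too. RAC1 was just past the threshold (0.31 ± 0.11, adjusted p = 0.0396) and lost the call when replicate number entered as a block (0.0562), when only LAA and LAA+ATRA libraries were fitted (0.0551), and without vehicle replicate 1 (0.0745), vehicle replicate 2 (0.0747), LAA replicate 1 (0.127), LAA replicate 2 (0.199) or LAA+ATRA replicate 2 (0.17, adjusted p = 0.247). HVCN1 was not called (-0.89 ± 0.39, adjusted p = 0.0956).

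**Figure D5:**
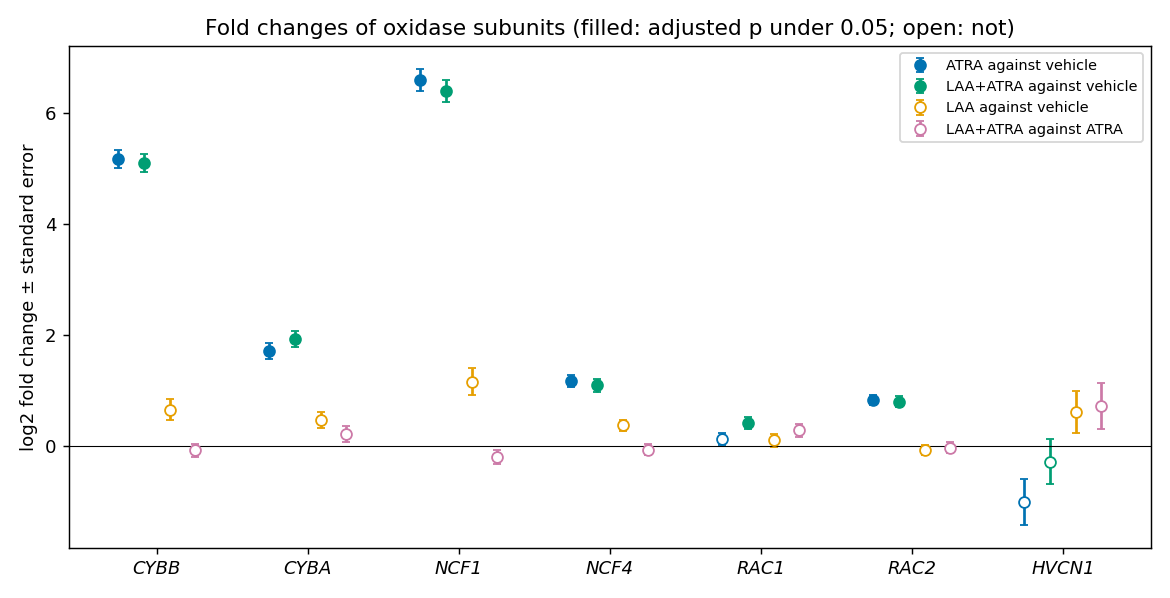
Log2 fold change with its standard error of the 7 members in 4 comparisons, filled where the adjusted p was under 0.05. The ATRA and LAA+ATRA values against vehicle lie close to each other for CYBB, CYBA, NCF1, NCF4 and RAC2, and every point of LAA+ATRA against ATRA and of LAA against vehicle is open.

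Whether LAA acted differently with and without ATRA was tested by the interaction, the log2 change with both minus the sum of the single changes. NCF1 had the largest departure of the 7, -1.35 ± 0.28 (unadjusted p = 4.25e-04, edgeR quasi-likelihood adjusted p = 0.531), which sets its 2.23-fold difference with LAA alone against a log2 change of -0.2 in the presence of ATRA. CYBB (-0.73 ± 0.22, adjusted p = 0.756) and NCF4 (-0.44 ± 0.15, adjusted p = 0.843) had the same sign. The edgeR test called 0 of 7 and 0.00667% of all genes, and 3 of 7 had an unadjusted p under 0.05, as had 4.98% of all genes. DESeq2 called NCF1 (-1.35, adjusted p = 0.00733), as did edgeR with no filter on low counts (-1.36, adjusted p = 3.92e-05), and over its other alternatives the adjusted p for NCF1 ran from 0.123 to 1. In absolute terms the difference of NCF1 with LAA was from 1.67 ± 0.0933 to 3.71 ± 0.644 CPM without ATRA and from 161 ± 28.1 to 141 ± 16.5 CPM with it.

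Averaging the effect of LAA over cells with and without ATRA called 2 of 7 members as higher, CYBA and NCF1, where 6.49% of all genes were called higher. CYBA was 1.27-fold higher on average (0.35 ± 0.098, adjusted p = 0.0398), with 0.47 and 0.22 as the effects behind the mean. For NCF1 the average of 0.48 ± 0.14 (adjusted p = 0.046) joins estimates of opposite sign, 1.16 and -0.2, and lies between them. Neither estimate was called on its own, and the interval of the second included 0. HVCN1 had the largest average, 0.67 ± 0.28 (adjusted p = 0.148), at few counts. With offsets for gene length neither was called (CYBA 0.13, adjusted p = 0.417; NCF1 0.37, adjusted p = 0.172), and the NCF1 call was also lost with the 3 copies summed (0.42, adjusted p = 0.0679). The NCF1 call was lost without vehicle replicate 1 (0.153), vehicle replicate 2 (0.156), LAA replicate 1 (0.206), LAA replicate 2 (0.0742), ATRA replicate 2 (0.0647) or LAA+ATRA replicate 1 (0.108), and the CYBA call when any library but LAA+ATRA replicate 2 was left out (adjusted p from 0.0541 without ATRA replicate 2 to 0.144 without vehicle replicate 1 or LAA replicate 2, and 0.2 as its value without LAA+ATRA replicate 1).

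Subunits and relatives outside the 7 were taken from a list of 14 genes, of which 5 passed the filter on low counts. With ATRA, 4 of the 5 rose and 1 fell. In this comparison 21.9% of all genes tested were called higher and 21% lower, which is the background for this list and for those that follow. As with the members, the lists were chosen with earlier results known, so these shares serve as a description. Among the rises were NCF1B and NCF1C, given above, and NOXA1, an oxidase activator outside the naming rule (1.79-fold, adjusted p = 0.0123). RAC3, the third Rac gene, fell (-0.59 ± 0.11, adjusted p = 8.26e-04). The catalytic relatives NOX1, NOX3, NOX4, NOX5, DUOX1 and DUOX2 did not pass the filter.

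Among 8 genes for assembly and stability of the membrane pair, 1 rose and 2 fell with ATRA, shares near or under those of all genes (21.9% higher, 21% lower). CYBC1, a chaperone that stabilizes the CYBB and CYBA heterodimer, had 61.7 and 63.2 CPM in vehicle and 126 and 114 CPM with ATRA (1.92-fold, 0.94 ± 0.11, adjusted p = 1.94e-05), and with both compounds it was 1.77-fold higher than vehicle. NRROS, which promotes the degradation of CYBB protein, fell (-0.42 ± 0.13, adjusted p = 0.0205). The cytosolic chaperone HSP90AB1 fell as well (-0.96 ± 0.091, adjusted p = 5.21e-06). The median log2 fold change of the 8 was -0.07.

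Of 17 kinases and lipid kinases tested, 6 rose and 1 fell with ATRA (all genes, 21.9% higher and 21% lower). PIK3CG, the phosphoinositide kinase downstream of chemoattractant receptors, rose 6.45-fold (2.69 ± 0.1, adjusted p = 2.41e-09). PRKCD and PRKCB, protein kinase C forms that phosphorylate NCF1, rose 1.63-fold (adjusted p = 1.07e-04) and 1.49-fold (adjusted p = 3.38e-04), and the Toll-like receptor kinase IRAK4 rose 1.83-fold (adjusted p = 5.48e-05). The fall was in PIK3R4, a subunit of the class III phosphoinositide kinase, named after its value was seen (-0.35 ± 0.13, adjusted p = 0.0433). Averaged over ATRA states, LAA lowered 4 of the 17 and raised none, where 5.98% of all genes were called lower and 6.49% higher. PRKCB (-0.39 ± 0.066, adjusted p = 0.00678) and PIK3CB (-0.36 ± 0.085, adjusted p = 0.0208) had the smallest adjusted p of these.

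Of 12 genes of the Rac and Rap cycle, 7 rose and 2 fell with ATRA, against 21.9% and 21% of all genes. VAV1, an exchange factor for Rac in blood cells, rose 2.11-fold (adjusted p = 1.14e-05), whereas TIAM1, another Rac exchange factor, fell (-1.9 ± 0.19, adjusted p = 9.17e-06). ARHGAP25, a GTPase-activating protein for Rac, rose 1.68-fold (adjusted p = 1.37e-04), and BCR, which holds a Rac GTPase-activating domain, fell (-0.85 ± 0.11, adjusted p = 5.64e-05). Activators and inactivators of Rac were thus found on both sides. With LAA averaged over ATRA states, 1 of the 12 rose and 1 fell, against 6.49% and 5.98% of all genes. The fall was in the Rac exchange factor DOCK2 (-0.32 ± 0.074, adjusted p = 0.0186).

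Genes that supply NADPH rose with ATRA in 4 of 5 cases, and none fell, against 21.9% and 21% of all genes. PGD, the pentose phosphate dehydrogenase, rose 4.5-fold (2.17 ± 0.097, adjusted p = 8.41e-09), NAD kinase, NADK, rose 2.15-fold (adjusted p = 1.80e-06), and the isocitrate dehydrogenase IDH1 rose 1.81-fold (adjusted p = 2.74e-05). Of 7 genes that handle superoxide and peroxide, 2 rose and 3 fell, where 21.9% of all genes rose and 21% fell. The falls were the peroxiredoxin PRDX1 (-1.64 ± 0.13, adjusted p = 1.08e-06) and the superoxide dismutases SOD2 (-1.32 ± 0.1, adjusted p = 1.10e-06) and SOD1 (-0.69 ± 0.11, adjusted p = 2.18e-04). Catalase, CAT, rose 1.42-fold (adjusted p = 0.00183), as did GPX1, outside the naming rule (1.7-fold, adjusted p = 0.00234). With LAA averaged over ATRA states 3 of the 7 rose, where 6.49% of all genes did, led by GPX4 (1.3-fold, adjusted p = 0.0149) and SOD1 (1.22-fold, adjusted p = 0.0274).

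Of 11 tested transcription factors with sites described at oxidase genes, 5 rose and 1 fell with ATRA, again against 21.9% and 21% of all genes. IRF1, which binds interferon-response elements, rose 9.07-fold (adjusted p = 1.90e-09), CEBPE 4.82-fold (adjusted p = 2.41e-08) and CEBPB 3.91-fold (adjusted p = 4.68e-08). SPI1, which encodes PU.1, rose 2.06-fold (1.04 ± 0.11, adjusted p = 9.68e-06). The fall was in HOXA9 (-0.36 ± 0.11, adjusted p = 0.0187), named after its value was seen because it was the only one. IRF8, a myeloid interferon-regulatory factor, was not called (-0.34 ± 0.13, adjusted p = 0.0503). LAA added to ATRA called 2 of the 11, where 1.01% of all genes were called, with CEBPB higher (0.55 ± 0.1, adjusted p = 0.0402) and ELF1, an ETS factor, lower (-0.59 ± 0.099, adjusted p = 0.0307). With LAA alone no gene of any of these lists was called in the edgeR fit to all 8 libraries, where 0.0267% of all genes were called.

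By distance between centred log2 CPM profiles over the 8 libraries, among 10652 genes with a symbol and a mean of at least 5 CPM in some group, the nearest genes to CYBB were SIGLEC16 (distance 0.671), ADGRG3 (0.74) and VSIG4 (0.763). Their folds with ATRA against vehicle were 109, 85.6 and 426, each larger than that of CYBB. NCF1 lay nearest to the hexokinase HK3 (0.7), then MS4A4A (0.818) and NCF1B (0.861). Here the folds were 61.2, 61.1 and 78.3, each smaller than that of NCF1. CYBA lay nearest to RETN (0.315), NCF4 to ASL (0.229), RAC2 to OSCAR (0.121), RAC1 to HCFC1R1 (0.153) and HVCN1 to NME1 (0.458). A small constant was added to CPM before the log, which draws low values together, so near genes can differ in fold. The distance is in log2 units, and members with small changes have small distances to many genes, so it is not compared between members.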

How the data were processed

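RNA from U-937 cells in 4 groups of 2 libraries was measured by poly-A selected sequencing. The deposited estimated counts are reads per gene with decimals, not scaled between libraries. The authors also deposited FPKM, values per kilobase of gene length, whose scaling to library size is not given in the sources used here. Builds GRCh38 and hg38 and the tools Salmon 1.8.0 and DESeq2 1.36.0 come from the submitters' processing notes, without an annotation release, strand setting or way of summing transcripts. Salmon shares reads between near-identical transcripts, which bears on NCF1.

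Counts were rounded, which changed 16.5% of the values. Genes were filtered with filterByExpr, scaled by TMM and fitted with 4 group means over all 8 libraries in edgeR 4.0.16 under R 4.3.3 (quasi-likelihood F test, two-sided, Benjamini-Hochberg adjustment over 14995 genes in each of 7 comparisons). That gave 4 residual and 8.2 prior degrees of freedom. The scripts were tested on simulated data. Alternatives used DESeq2 1.42.0, limma 3.58.1 on log2(FPKM + 1) or log2(FPKM + 0.1) with a group mean of at least 1 FPKM or no filter, RLE scaling, no count filter, length offsets, summed NCF1 copies, a replicate block, only the libraries compared, and each library left out. Where 1 library was left in a group, it was assumed to vary like the other groups. The gene length implied by count and FPKM was scaled by the median gene of each library. The length offsets removed from each library a smooth trend of log2 CPM against this length, averaged for each gene over libraries. Changes in the length of a gene between libraries were thus left uncorrected. Replicates of a group differed by more than counting error, with reduced chi-squares of 5.24 (vehicle), 5.85 (LAA), 21.3 (ATRA) and 23.7 (both compounds). The spread of a gene was estimated over all groups together. Members, lists and motifs were chosen with earlier results of these data known. The naming rule took all members, up to 4 called genes per list by adjusted p with ATRA, up to 2 in other comparisons, and CYBC1, NCF1B and NCF1C throughout. Some genes so chosen are not reported here. Symbols came from the deposited tables, positions and transcripts from GENCODE 29, which may differ from the authors' annotation, and promoters from RefSeq.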

Additional observations from a re-analysis of the deposited data

How the results depend on the processing

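Over all 7 members and comparisons, 808 of the recomputed fold changes kept their side of the threshold, 23 gained a call, 33 lost one, and none that was called changed sign. The 5 calls with ATRA, the 6 with both compounds and the 0 for LAA added to ATRA stayed within 1.5 times in every alternative run. For LAA alone the 0 of 7 became 4 with DESeq2, 3 with no low-count filter, 3 with only the libraries compared and 0 to 2 when 1 library was left out. For the interaction, 0 became 1 with DESeq2 and 1 with no low-count filter. For the average LAA effect, 2 became 1 with the replicate block, 1 in limma on log2(FPKM + 1) and 1 on log2(FPKM + 0.1) (in both, RAC1 in place of CYBA and NCF1, with adjusted p = 0.0471 and 0.047), 0 on log2(FPKM + 1) with no filter on low values, 0 with length offsets, 1 with the NCF1 copies summed, and 0 to 2 when 1 library was left out. The log2 ratio of RAC2 to RAC1 with ATRA was 0.53 higher on FPKM, 0.63 on CPM, and 0.42 to 0.61 when 1 library was left out. Over all genes, calls for LAA alone ran from 0 to 2187 (4 reported), for LAA added to ATRA from 4 to 903 (152), for the average LAA effect from 34 to 2486 (1870) and for the interaction from 1 to 136 (1). Without a filter on log2(FPKM + 1) the calls were 4163 with ATRA, 4334 with both compounds and 3352 for ATRA added to LAA, against 6428, 6701 and 5451. No shared shift of same-numbered libraries was seen: their deviations correlated between -0.093 and 0.09 over pairs of groups. This does not exclude that they were paired, which the labels do not state. The replicate block gave 5 calls with ATRA, and it ended the calls of CYBA for the average LAA effect (adjusted p = 0.0541) and of RAC1 for ATRA added to LAA (0.0562). HVCN1 had 15 to 72 counts per library, and the 3 NCF1 copies together had 61 to 168 without ATRA. The causes of these changes were not tested.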
